A study of Mus musculus with 22 samples.

Results

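The genes described here are 10 members of the lymphotoxin and TNF system, taken by symbol from a table of 34047 genes counted in dendritic cells (DCs). They are Ltb, Ltbr, Tnf, Tnfrsf1a, Tnfrsf1b, Tnfrsf11a, Tnfsf13, Tnfsf13b, Tnfsf10 and Fas, and all 10 were found and passed the filter on low counts. RNA was sequenced from conventional DCs of Tbx21RFP-cre mice, a strain in which a red fluorescent protein and Cre recombinase are made from the gene for the transcription factor T-bet. The mice were 6 to 10 weeks old and the study's methods describe them as homozygous for the knock-in, so all groups carry the allele. cDC1, T-bet- cDC2 and T-bet+ cDC2 were sorted from the spleen (3 libraries each) and from the mesenteric lymph nodes (MLN; 3 libraries of cDC1 and 2 of each cDC2 subset). Cells of 2 mice were pooled for a library, and cDC2 were split by the fluorescence alone. Accessible chromatin was measured by ATAC-seq in the same 3 subsets of the spleen, with 2 libraries each.

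The TNF superfamily consists of trimeric ligands, many of them anchored in the membrane, and of receptors that recruit TRAF adaptors or death-domain proteins. Lymphotoxin beta anchors lymphotoxin alpha at the cell surface, and the heterotrimer engages the lymphotoxin beta receptor, which activates NF-kB through its alternative pathway. This axis organizes lymphoid tissue and is known to sustain cDC2 in the spleen. TNF acts through 2 receptors, while APRIL (Tnfsf13) and BAFF (Tnfsf13b) are survival factors for B cells and plasma cells.

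Between 20993220 and 29006549 reads per RNA library were counted on genes, and between 7270164 and 10081555 per ATAC-seq library in windows. The summed level of 9 cDC1 markers was 4217 to 10701 CPM (counts scaled to library size) in the 6 cDC1 libraries and at most 907 CPM in the cDC2 libraries. Tbx21, which encodes T-bet, was at 17.1 to 24.7 CPM in spleen T-bet+ cDC2 and at most 2.35 CPM in spleen T-bet- cDC2. In the MLN it was at 7.12 and 3.02 CPM in T-bet+ cDC2 and at 0.54 and 0.929 CPM in T-bet- cDC2. Markers of NK cells summed to at most 3.18 CPM in any library. Several lists of other cells moved with groups. The T-cell list was at 28.4 to 35.1 CPM in spleen T-bet+ cDC2, with Cd3g and Thy1 at 0 in its libraries, and at 6.10 to 15.5 CPM in the other spleen libraries. In the MLN it was at 17.6 to 33.0 CPM in T-bet+ cDC2 and 6.68 to 14.4 CPM in the others. The B-cell list was at 94.4 to 123.9 CPM in spleen T-bet- cDC2 and at 40.2 to 82.1 CPM in the other spleen libraries, and in the MLN at 64.5 to 85.8 CPM in cDC2 and 22.9 to 25.4 CPM in cDC1. Monocyte and macrophage markers summed in the spleen to 278 to 447.3 CPM in cDC1, 846.3 to 953.6 CPM in T-bet+ and 1195 to 1554 CPM in T-bet- cDC2, and in the MLN to 262.6 to 298.6, 450.7 to 707 and 660.2 to 808.4 CPM. Neutrophil markers were at 17.9 to 61.8 CPM in spleen and 0 to 3.48 CPM in MLN libraries, and erythroid markers at 3.29 to 11.2 and 0.108 to 0.435 CPM. Over all libraries plasma cell markers were at 0.205 to 36.7 CPM, pDC markers at 97.9 to 249.1 CPM and stromal and endothelial markers at 15.2 to 130.3 CPM. The part of these lists in the results was not tested. Libraries also differed in how far levels followed GC content (Spearman rho from -0.40 to 0.34). For each gene this was the GC share of the most GC-rich 100 bases of its longest transcript. Among spleen libraries the 3 of T-bet+ cDC2, cDC1 replicates 1 and 2 and T-bet- replicate 3 were above 0.1, and the other 3 were at -0.178 or below. Below, high GC dependence means a rho above 0.1, although the rho of spleen T-bet- replicate 1 (-0.40) was the largest in magnitude.

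Of the 177956 ATAC-seq windows of 150 bases, 77 had one of the 10 genes as the nearest gene within 50 kb. The windows on which the comparisons below turn are shown with the reference sequence of mm10, plus strand, in which capitals mark matches to the motifs searched. The motifs were NF-kB, T-box (AGGTGTNA), RUNX (TGTGGTT), PU.1 (GAGGAAGT), C/EBP (TTGCNNAA), the interferon-stimulated response element (ISRE) and AP-1 (TGANTCA), on both strands, where N is any base. The first 2 sequences belong to Tnfsf13b and are the 250 bases before its start, which end inside the promoter window that was lowest in T-bet+ cDC2 (chr8:10006217-10006466), and an intron window that was higher in cDC1 (chr8:10026307-10026456).

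Tnfsf13b upstream: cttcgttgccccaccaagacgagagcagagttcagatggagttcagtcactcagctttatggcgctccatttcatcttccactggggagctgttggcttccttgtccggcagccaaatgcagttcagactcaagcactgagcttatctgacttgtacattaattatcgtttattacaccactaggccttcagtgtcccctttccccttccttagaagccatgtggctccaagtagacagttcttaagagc
Tnfsf13b intron: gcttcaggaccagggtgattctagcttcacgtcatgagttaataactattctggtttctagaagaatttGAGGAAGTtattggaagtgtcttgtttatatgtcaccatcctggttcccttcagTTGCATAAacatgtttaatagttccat

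The next 3 are the windows besides that promoter that differed between T-bet+ and T-bet- cDC2, namely an intron of Tnfrsf1b (chr4:145221580-145221729), an intron of Tnfrsf11a (chr1:105805674-105805823) and a site beyond the 3′ end of Tnfrsf11a (chr1:105866783-105866932).

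Tnfrsf1b intron: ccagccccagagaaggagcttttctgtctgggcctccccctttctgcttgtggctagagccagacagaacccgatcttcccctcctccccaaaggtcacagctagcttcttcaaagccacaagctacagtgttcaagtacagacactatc
Tnfrsf11a intron: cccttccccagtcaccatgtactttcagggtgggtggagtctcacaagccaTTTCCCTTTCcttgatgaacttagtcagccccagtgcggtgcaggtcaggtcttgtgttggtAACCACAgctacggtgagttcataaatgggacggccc
Tnfrsf11a downstream: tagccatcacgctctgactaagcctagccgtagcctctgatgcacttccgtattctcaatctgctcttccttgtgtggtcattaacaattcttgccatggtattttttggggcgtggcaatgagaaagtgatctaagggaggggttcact

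The last pair is an intron window of Fas that was higher in the cDC1 libraries (chr19:34306912-34307061) and the single window at Ltb (chr17:35193081-35193230), whose accessibility passed no test although the RNA differed.

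Fas intron: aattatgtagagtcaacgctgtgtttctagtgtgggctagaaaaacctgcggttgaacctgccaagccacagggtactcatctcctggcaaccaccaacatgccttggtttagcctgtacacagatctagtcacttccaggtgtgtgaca
Ltb upstream: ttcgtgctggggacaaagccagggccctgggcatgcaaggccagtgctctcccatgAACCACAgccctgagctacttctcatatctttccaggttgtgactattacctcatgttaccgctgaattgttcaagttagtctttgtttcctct

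The Tnfsf13b intron held 1 match to PU.1 and 1 to C/EBP, the Tnfrsf11a intron 1 to RUNX and 1 to ISRE, and the Ltb window 1 to RUNX. Of all windows, 5.50% held the PU.1 letters, 5.89% C/EBP, 5.23% RUNX, 2.39% ISRE, 3.39% NF-kB, 1.92% T-box and 7.90% AP-1. The other 4 sequences held none of these letters. In the 250 bases before the starts of 32851 RefSeq promoters the shares were 2.44% for PU.1, 9.56% for C/EBP, 4.4% for RUNX, 2.98% for ISRE, 4.65% for NF-kB, 2.68% for T-box and 6.75% for AP-1.

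Ltb was the member with the widest range of levels. In spleen T-bet+ cDC2 it was at 578, 497 and 777 CPM, in T-bet- cDC2 at 40.2, 118 and 412 CPM, and in cDC1 at 33.3, 19.8 and 12.2 CPM. The 3 groups did not overlap, but T-bet- replicate 3 lay close to the T-bet+ libraries and far above the other T-bet- libraries. In the MLN, T-bet+ cDC2 had 237 and 86.3 CPM, T-bet- cDC2 21.6 and 101 CPM and cDC1 7.95, 8.97 and 12.9 CPM, so that both cDC2 subsets were above cDC1 and overlapped each other.

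A difference was called at an adjusted p under 0.05 by edgeR's quasi-likelihood test over all genes, and fold changes are on the log2 scale. Against cDC1, Ltb rose in spleen T-bet+ cDC2 by 4.84 ± 0.81 (SE; adjusted p = 0.0027) and in spleen T-bet- cDC2 by 3.14 ± 0.75 (adjusted p = 0.019). The latter value was 1.85 without T-bet- replicate 3 (adjusted p = 0.035), and its call was lost without cDC1 replicate 2 (3.09, adjusted p = 0.081) or replicate 3 (2.84, adjusted p = 0.056). That call was also lost with the replicate number as a block. Between T-bet+ and T-bet- cDC2 of the spleen the difference of 1.70 ± 0.71 did not pass (adjusted p = 0.24), whereas without T-bet- replicate 3 it was 2.88 and passed (adjusted p = 0.024). T-bet- replicate 3 was also the T-bet- library with the high GC dependence, and with that class as a term of the fit the difference was 0.93 ± 0.47 (adjusted p = 0.39). Within the libraries of high GC dependence the T-bet+ libraries remained above T-bet- replicate 3 (497 to 777 against 412 CPM) and above the cDC1 libraries (33.3 and 19.8 CPM). In the MLN, Ltb rose in T-bet+ cDC2 over cDC1 by 4.05 ± 0.66 (adjusted p = 0.013). That call was lost without T-bet+ replicate 1 (3.13, adjusted p = 0.066), cDC1 replicate 2 (3.98, adjusted p = 0.054) or cDC1 replicate 3 (4.28, adjusted p = 0.052), and with the replicate number as a block (4.32, adjusted p = 0.051). The difference of MLN T-bet- cDC2 from cDC1 was 2.65 ± 0.64 (adjusted p = 0.053).

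The only ATAC-seq window nearest to Ltb lay 1284 bases before the gene start (chr17:35193081-35193230). Its levels were 4.35 and 5.80 CPM in cDC1, 3.79 and 6.11 CPM in T-bet- cDC2 and 7.79 and 5.91 CPM in T-bet+ cDC2, which overlapped, and no comparison passed.

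**Figure D1:**
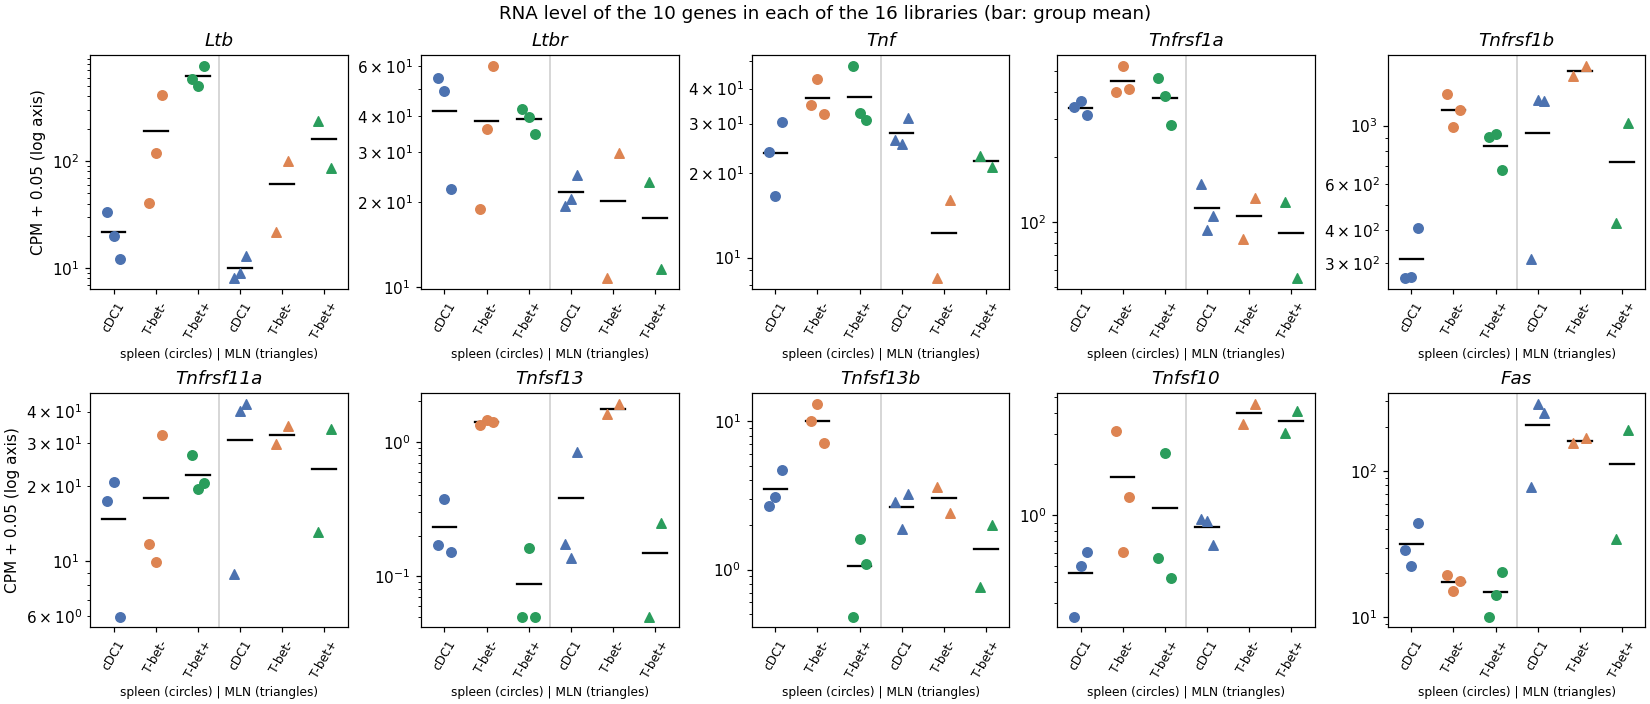
Levels of the 10 genes as CPM + 0.05 on log axes, with 1 point per library (circles spleen, triangles MLN) and a bar at the mean of each group. The 3 spleen T-bet+ libraries are the highest of all 16 for Ltb, at 497 to 777 CPM, Tnfsf13b is lowest in T-bet+ cDC2 in spleen (0.43 to 1.57 CPM), and Fas is higher in MLN than in spleen.

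Ltbr, the receptor of the lymphotoxin heterotrimer, was at 22.1 to 54.3 CPM in spleen cDC1, 18.8 to 60.3 CPM in T-bet- cDC2 and 34.7 to 42.3 CPM in T-bet+ cDC2. It passed none of the 12 comparisons, and its difference between spleen T-bet+ and T-bet- cDC2 was 0.01 ± 0.45 (adjusted p = 0.99). The highest level was in T-bet- replicate 3, and the 6 spleen libraries of high GC dependence were at 34.7 to 60.3 CPM against 18.8 to 36 CPM in the other 3. Of its 2 windows, 16312 and 16531 bases from the gene start, none was called.

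Tnfrsf11a encodes RANK, a receptor that DCs use to receive survival signals from T cells. It was at 5.92 to 20.7 CPM in spleen cDC1, 9.88 to 32.2 CPM in T-bet- cDC2 and 19.5 to 26.7 CPM in T-bet+ cDC2, with overlap between all groups. In the MLN the library levels ran from 8.81 to 42.9 CPM. No comparison of its RNA passed, and T-bet- replicate 3 was again the highest spleen library. With the GC class as a term, the difference between spleen T-bet- cDC2 and cDC1 passed (0.85 ± 0.24, adjusted p = 0.033), compared with 0.30 ± 0.54 (adjusted p = 0.76) without it.

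**Figure D2:**
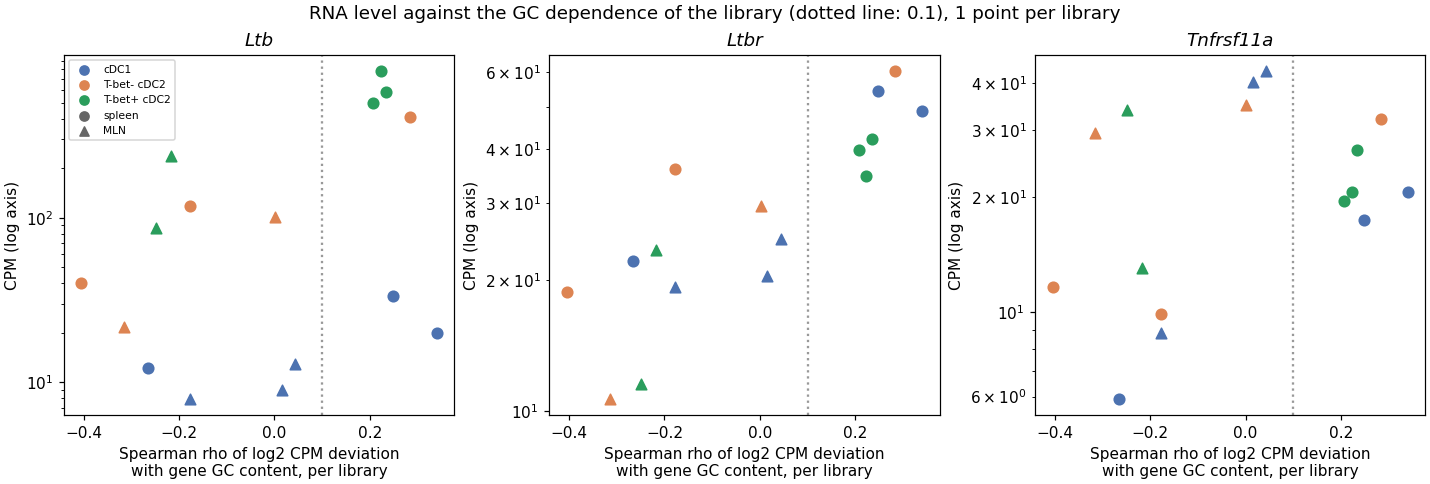
CPM of Ltb, Ltbr and Tnfrsf11a (log axes) against the Spearman correlation of each library's log2 CPM deviations with GC content, 1 point per library (circles spleen, triangles MLN). GC content is that of the most GC-rich 100 bases of a gene's longest transcript. T-bet- replicate 3 of the spleen, at 412 CPM for Ltb, lies right of the dotted line at 0.1 with the spleen T-bet+ libraries and 2 cDC1 libraries.

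BAFF and APRIL were the members that fell in spleen T-bet+ cDC2 relative to T-bet- cDC2. Tnfsf13b (BAFF) was at 0.43, 1.57 and 1.03 CPM in T-bet+ cDC2, at 10.0, 13.1 and 7.13 CPM in T-bet- cDC2 and at 2.64, 3.03 and 4.65 CPM in cDC1. The 3 groups did not overlap, with cDC1 between the cDC2 subsets. The difference between T-bet+ and T-bet- cDC2 was -3.32 ± 0.51 (adjusted p = 0.0062) and passed in all 13 alternative fits. Against cDC1, Tnfsf13b fell in T-bet+ cDC2 (-1.73 ± 0.49, adjusted p = 0.036) and rose in T-bet- cDC2 (1.59 ± 0.47, adjusted p = 0.048). These calls stand close to the threshold: leaving out T-bet+ replicate 1 or 3 or cDC1 replicate 2 or 3 gave adjusted p = 0.064 to 0.10 for the first, and leaving out T-bet- replicate 1 or 2 or any cDC1 replicate gave adjusted p = 0.055 to 0.16 for the second. The second was also lost with the replicate number as a block. In the MLN the levels were 0.708 and 1.95 CPM in T-bet+ cDC2, 3.58 and 2.36 CPM in T-bet- cDC2 and 1.83 to 3.17 CPM in cDC1. The difference between the MLN cDC2 subsets was -1.22 ± 0.62 (adjusted p = 0.61). The test of whether this difference was larger in the spleen gave -2.14 ± 0.78 (adjusted p = 0.95). The summed monocyte and macrophage markers had the same order as Tnfsf13b between the spleen cDC2 subsets (1195 to 1554 CPM in T-bet- and 846.3 to 953.6 CPM in T-bet+ cDC2), but were lowest in cDC1, and their part was not tested.

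The promoter of Tnfsf13b was also less accessible in T-bet+ cDC2. The window centred 42 bases after the gene start (chr8:10006435-10006584), which overlaps the first exon, had 14.6 and 14.5 CPM in T-bet+ cDC2, 45.5 and 49.2 CPM in T-bet- cDC2 and 56.5 and 49.3 CPM in cDC1. Both T-bet+ libraries were thus below the other 4. The difference was -1.70 ± 0.18 from T-bet- cDC2 (adjusted p = 1.7e-11) and -1.87 ± 0.18 from cDC1 (adjusted p = 3.6e-14), and the first was called in all 9 alternative fits. T-bet- cDC2 did not differ detectably from cDC1 at this window (-0.16 ± 0.16, adjusted p = 0.51), while their RNA did. The intron window (chr8:10026307-10026456) had another order, with 7.06 and 10.7 CPM in cDC1, 0.978 and 1.2 CPM in T-bet- cDC2 and 0.757 and 1.14 CPM in T-bet+ cDC2. It was lower than in cDC1 in T-bet+ cDC2 (-3.20 ± 0.41, adjusted p = 8.9e-10) and in T-bet- cDC2 (-3.0 ± 0.40, adjusted p = 6.8e-09). At this window the cDC2 libraries lay near the filter on low counts. Of the 10 windows of Tnfsf13b, 4 were lower in T-bet+ cDC2 than in cDC1 and none was higher, beside 23.0% of all windows called in this comparison. The call of the window 860 bases after the gene start was kept in 5 of 8 alternative fits.

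Tnfsf13 (APRIL) had few counts. It was counted 27, 28 and 36 times in the spleen T-bet- libraries, 0, 3 and 0 times in T-bet+ and 3, 8 and 2 times in cDC1. The fitted difference between T-bet+ and T-bet- cDC2 was -4.96 ± 1.08 (adjusted p = 0.029). As summed counts the ratio of T-bet- to T-bet+ was 34.3 (95% exact interval 11.4 to 169.5, counting error only). The gene passed the filter in the spleen through the T-bet- libraries alone, so a difference there was a condition of being tested. The call was lost without T-bet+ replicate 1 or 3 or T-bet- replicate 1 or 2 (adjusted p = 0.084 to 0.11), and the fitted value was -7.99 without T-bet+ replicate 2. With the replicate number as a block the call was also lost. In the MLN, T-bet- cDC2 had 46 and 48 counts, T-bet+ cDC2 0 and 5 and cDC1 3, 2 and 22, and the ratio of T-bet- to T-bet+ was 17.6 (95% exact interval 7.30 to 55.6), while the fitted difference of -4.10 ± 1.49 did not pass (adjusted p = 0.44). The values of Tnfsf13 are uncertain because 60.0% of its exon bases are shared with the read-through gene Tnfsfm13 or the antisense gene Tnfsf13os, and whether the counting used strand is not given in the sources used here. Its single window, at the 3′ end of the gene (chr11:69682873-69683022), was at 4.77 to 10.1 CPM in all 6 libraries and was not called.

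Tnfsf10 encodes TRAIL, a ligand of death receptors. It was low in the spleen, at 0.2 to 0.556 CPM in cDC1, 0.555 to 3.08 CPM in T-bet- cDC2 and 0.372 to 2.27 CPM in T-bet+ cDC2, and no spleen comparison passed. In the MLN both cDC2 subsets were above all cDC1 libraries, with 3.41 and 4.49 CPM in T-bet- cDC2, 3.02 and 4.09 CPM in T-bet+ cDC2 and 0.902, 0.871 and 0.612 CPM in cDC1. The rise over cDC1 was 2.17 ± 0.43 in T-bet+ cDC2 (adjusted p = 0.026) and 2.35 ± 0.43 in T-bet- cDC2 (adjusted p = 0.020). With 4 residual degrees of freedom these calls were lost when T-bet+ replicate 1 or 2 (first), T-bet- replicate 1 or 2 (second), cDC1 replicate 2 or cDC1 replicate 3 was left out (adjusted p = 0.061 to 0.12), and with the replicate number as a block (1.98, adjusted p = 0.12, and 2.17, adjusted p = 0.094). In the spleen ATAC-seq, a promoter window of Tnfsf10 (chr3:27316700-27316849) had 7.18 and 3.99 CPM in cDC1 and 9.62 to 11.1 CPM in the 4 cDC2 libraries. It rose in T-bet+ cDC2 (0.87 ± 0.27, adjusted p = 0.0094), a call lost without T-bet+ replicate 2 (0.77, adjusted p = 0.053) or cDC1 replicate 2 (0.53, adjusted p = 0.28), and also under DESeq2 (adjusted p = 0.048), with library size in place of TMM (0.70, adjusted p = 0.045) and with a replicate block (adjusted p = 0.010).

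TNF signals through TNFR1 (Tnfrsf1a), which holds a death domain, and through TNFR2 (Tnfrsf1b), which prefers membrane-bound TNF and lacks one. Tnf itself was at 48.2, 32.8 and 30.9 CPM in spleen T-bet+ cDC2, 34.8, 43.3 and 32.4 CPM in T-bet- cDC2 and 23.8, 16.5 and 30.4 CPM in cDC1. All 6 cDC2 libraries were above the cDC1 libraries, but neither difference passed (0.70 ± 0.29, adjusted p = 0.13, and 0.69 ± 0.29, adjusted p = 0.15). In the MLN the order was another, with 26.3, 25.3 and 31.3 CPM in cDC1, 23.0 and 21 CPM in T-bet+ cDC2 and 8.38 and 16 CPM in T-bet- cDC2. Tnf was higher in spleen than in MLN T-bet- cDC2 by 1.63 ± 0.35 (adjusted p = 0.015). The call was lost without MLN T-bet- replicate 1 (1.21, with 1 MLN T-bet- library left) and with a replicate block (1.92, adjusted p = 0.12). The test of whether the difference between T-bet- cDC2 and cDC1 differed between tissues gave 1.88 ± 0.45 (adjusted p = 0.22 by edgeR, 0.016 by DESeq2).

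The window inside Tnf (chr17:35200563-35200712), which overlaps an exon, had 4 and 4.25 CPM in cDC1, 7.21 and 12.9 CPM in T-bet- cDC2 and 19.8 and 13.2 CPM in T-bet+ cDC2. It rose over cDC1 in T-bet+ cDC2 (1.99 ± 0.28, adjusted p = 1.8e-08) and in T-bet- cDC2 (1.3 ± 0.29, adjusted p = 0.00029), and the cDC2 subsets did not overlap but did not pass (0.69 ± 0.25, adjusted p = 0.055). Without T-bet- replicate 2 the value against cDC1 was 0.81 (adjusted p = 0.10).

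Tnfrsf1b was at 1315, 983 and 1142 CPM in spleen T-bet- cDC2, 906, 925 and 676 CPM in T-bet+ cDC2 and 261, 264 and 408 CPM in cDC1. Every cDC2 library was above every cDC1 library, and the cDC2 subsets did not overlap. Over cDC1 it rose by 1.92 ± 0.23 in T-bet- cDC2 (adjusted p = 0.00038) and by 1.46 ± 0.22 in T-bet+ cDC2 (adjusted p = 0.0016), and both passed in all 13 alternative fits. The difference between the cDC2 subsets was -0.46 ± 0.22 (adjusted p = 0.30). Per kb of exon its mean was 300.4 CPM in spleen T-bet- cDC2, compared with 173 for Tnfrsf1a and 125 for Ltb, while in T-bet+ cDC2 Ltb was highest with 407 CPM per kb.

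The Tnfrsf1b locus held more windows that differed from cDC1 than any other of the 10. Windows counted as called where the adjusted p was under 0.01 and the log2 change exceeded 0.5 in either direction. Of 15 windows, 12 were called in T-bet+ cDC2 (11 higher, 1 lower, beside 23.0% of all windows). In T-bet- cDC2 11 were called (10 higher, 1 lower, beside 17.9%). Neighbouring windows of 1 peak can share fragments. Several calls were not stable. For T-bet+ cDC2 the windows 31867 and 13122 bases after the start were called in 3 of 8 alternative fits and that at 24289 bases in 4. For T-bet- cDC2 that at 32283 bases was called in 4 of 8 and those at 13122 and 12703 bases in 5. An intron window (chr4:145221580-145221729) had 2.94 and 3.35 CPM in cDC1, 22.0 and 16.4 CPM in T-bet- cDC2 and 45.7 and 30.6 CPM in T-bet+ cDC2. The 3 groups did not overlap. It rose over cDC1 by 3.59 ± 0.25 in T-bet+ cDC2 (adjusted p = 1.1e-19) and by 2.60 ± 0.26 in T-bet- cDC2 (adjusted p = 6.3e-13), and by 0.99 ± 0.20 in T-bet+ over T-bet- cDC2 (adjusted p = 0.00019). The last call was lost without T-bet+ replicate 1 (0.68, adjusted p = 0.038) and without T-bet- replicate 2 (0.78, adjusted p = 0.034). A window 7726 bases before the start (chr4:145254522-145254671) was at 10.1 and 8.37 CPM in cDC1 and 32.5 to 37.2 CPM in the 4 cDC2 libraries. The 1 window that fell was in the promoter (chr4:145247783-145247932), with 9.06 and 9.66 CPM in cDC1, 3.91 and 3.61 CPM in T-bet- cDC2 and 4.11 and 5.70 CPM in T-bet+ cDC2. Its call was lost without T-bet+ replicate 1 or either cDC1 library for T-bet+ (adjusted p = 0.040 to 0.12), under DESeq2 (adjusted p = 0.053) and with a replicate block (adjusted p = 0.011), and without T-bet- replicate 2 for T-bet- cDC2 (adjusted p = 0.013).

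Tnfrsf1a was at 341, 362 and 314 CPM in spleen cDC1, 402, 531 and 412 CPM in T-bet- cDC2 and 465, 385 and 283 CPM in T-bet+ cDC2, and no comparison between spleen subsets passed. Its 7 MLN libraries were at 54.6 to 150 CPM, below all 9 spleen libraries. A window that overlaps an exon 8305 bases after the start (chr6:125357593-125357742) had 9.65 and 12.5 CPM in cDC1 and 3.0 to 3.68 CPM in the cDC2 libraries, and fell in T-bet+ (-1.73 ± 0.30, adjusted p = 3.6e-06) and T-bet- cDC2 (-1.82 ± 0.31, adjusted p = 2.7e-06). A second window of the gene (chr6:125351404-125351553) rose in T-bet+ cDC2 over cDC1 (1.01 ± 0.23, adjusted p = 0.00026), from 8.47 and 9.53 to 20.3 and 16.2 CPM, and was not called without cDC1 replicate 1 (adjusted p = 0.014).

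**Figure D3:**
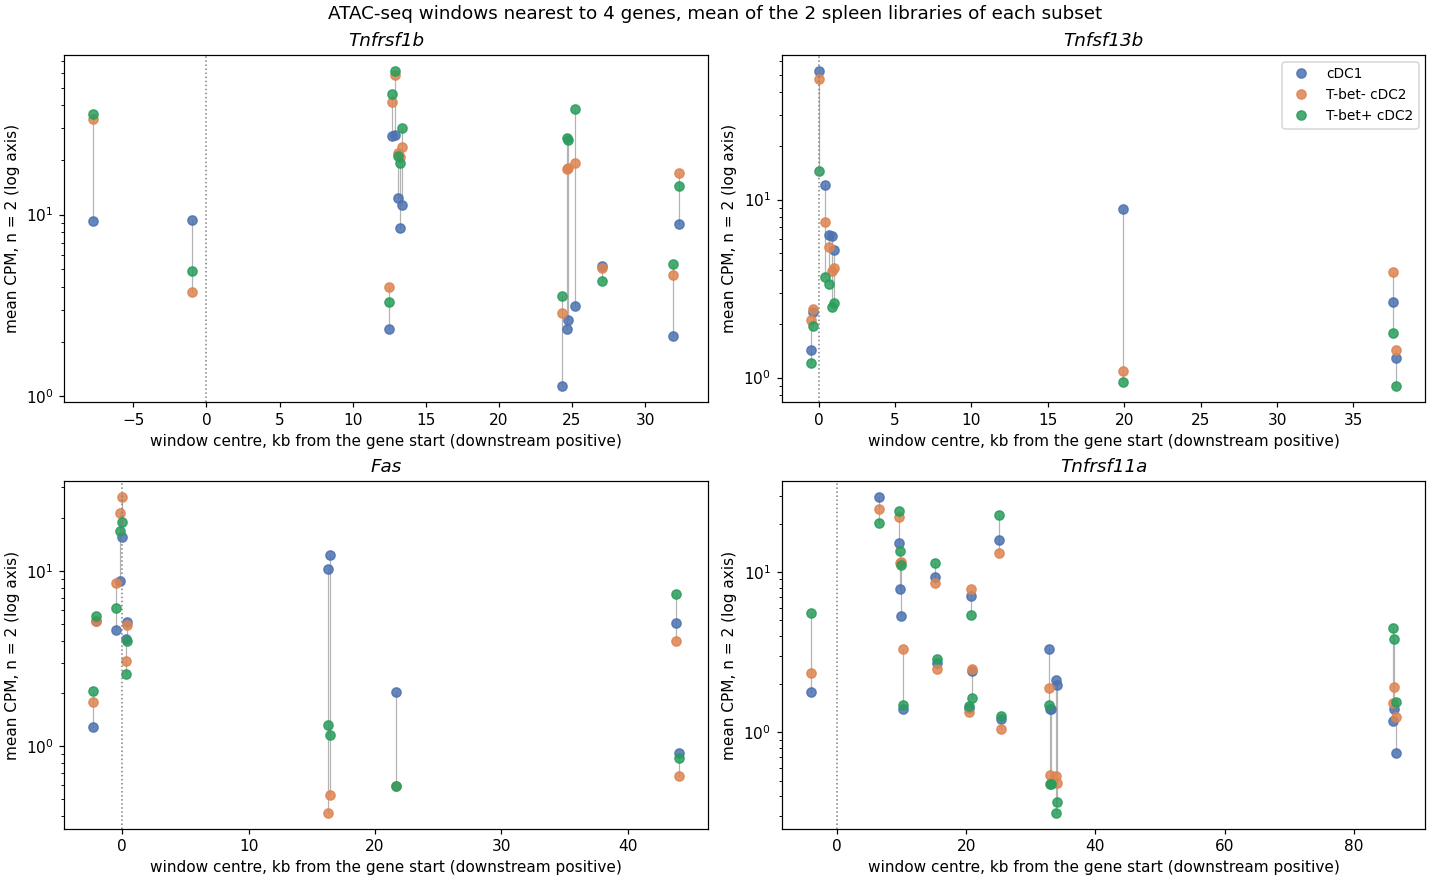
Mean CPM of the 2 spleen ATAC-seq libraries of each subset (log axes) in the windows nearest to Tnfrsf1b, Tnfsf13b, Fas and Tnfrsf11a, against the distance of the window centre from the gene start in kb, where grey lines join the 3 subsets of a window. Most Tnfrsf1b windows are lowest in cDC1, the Tnfsf13b promoter window is lowest in T-bet+ cDC2 (14.6 and 14.5 CPM), and the Fas windows near 16 kb are highest in cDC1 (9.66 to 12.8 CPM).

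Fas, the receptor for Fas ligand, which triggers apoptosis, was at 28.7, 22.3 and 44.0 CPM in spleen cDC1, 19.4, 15.1 and 17.8 CPM in T-bet- cDC2 and 10.0, 14.1 and 20.5 CPM in T-bet+ cDC2. The cDC2 libraries were all below the cDC1 libraries, and the difference of T-bet+ cDC2 from cDC1 was -1.05 ± 0.33 (adjusted p = 0.056 by edgeR, 0.022 by DESeq2), and it passed without T-bet+ replicate 3 or cDC1 replicate 2 (adjusted p = 0.043 for each). The locus showed windows of both directions. An intron window (chr19:34306912-34307061) was at 10.7 and 9.66 CPM in cDC1, 0.733 and 0.1 CPM in T-bet- cDC2 and 1.62 and 1.04 CPM in T-bet+ cDC2. The difference from cDC1 was -4.67 ± 0.48 in T-bet- cDC2 (adjusted p = 1.4e-12) and -2.94 ± 0.38 in T-bet+ cDC2 (adjusted p = 2.2e-09). Both T-bet- libraries lay below the filter on low counts, so a higher level elsewhere was a condition of testing this window. The T-bet- value ran from -6.48 to -3.76 over the alternative fits. The promoter window (chr19:34290433-34290582) had the opposite order, with 9.06 and 8.37 CPM in cDC1, 22.9 and 20.1 CPM in T-bet- cDC2 and 14.9 and 18.8 CPM in T-bet+ cDC2, and rose in both (1.29 ± 0.22, adjusted p = 3.3e-06, and 0.94 ± 0.22, adjusted p = 0.00053). For T-bet+ cDC2 it was not called without T-bet+ replicate 2 (adjusted p = 0.013) or cDC1 replicate 2 (adjusted p = 0.017).

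For Tnfrsf11a, whose RNA passed no test, 2 of 20 tested windows rose in T-bet+ over T-bet- cDC2, beside 6.28% of all windows called. The intron window (chr1:105805674-105805823) had 23.8 and 21.3 CPM in T-bet+ cDC2, 12.0 and 14.4 CPM in T-bet- cDC2 and 17.3 and 14.6 CPM in cDC1 (0.76 ± 0.21 between the cDC2 subsets, adjusted p = 0.0071). The window beyond the 3′ end of the gene (chr1:105866783-105866932), had 4.54 and 4.46 CPM in T-bet+ cDC2 and 0.941 to 1.70 CPM in the other 4 libraries (1.54 ± 0.40, adjusted p = 0.0055). Leaving out T-bet- replicate 1 or 2 or T-bet+ replicate 1 ended the call of the first (adjusted p = 0.025 to 0.14), and leaving out any cDC2 library ended that of the second (adjusted p = 0.019 to 0.070). Both were also lost under DESeq2 (adjusted p = 0.024 and 0.071) and with library size in place of TMM (adjusted p = 0.017 and 0.011).

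Spleen T-bet+ against T-bet- cDC2 thus gave 2 called genes of the 10, both lower in T-bet+ cDC2, where 5.38% of all 14377 tested genes were called. Of these 2, Tnfsf13 was tested through its T-bet- libraries alone, so that Tnfsf13b is the single call that the filter did not favour. Against cDC1, 3 of 10 were called in T-bet+ cDC2 (2 higher, 1 lower) beside 18.2% of all genes, and 3 in T-bet- cDC2 (all higher) beside 15.9%. The comparisons with cDC1 share the cDC1 libraries.

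In the MLN no member was called between T-bet+ and T-bet- cDC2, where edgeR called 0% of 15298 genes, 1444 genes had an unadjusted p under 0.05 and DESeq2 called 328. Among the members, Tnf (0.83 ± 0.34) and Tnfsf13 had an unadjusted p under 0.05, and DESeq2 called none. Against MLN cDC1, 2 were called in T-bet+ cDC2 (Ltb and Tnfsf10) beside 6.22% of all genes, and 1 in T-bet- cDC2 (Tnfsf10) beside 5.79%.

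Of the 74 windows tested, 4 were called between T-bet+ and T-bet- cDC2 (3 higher in T-bet+, 1 lower), beside 6.28% of all 166547 windows. Against cDC1, 30 were called in T-bet+ cDC2 (20 higher, 10 lower) beside 23.0%, and 20 in T-bet- cDC2 (15 higher, 5 lower) beside 17.9%. Tnfrsf1b supplied 12 of the 30 and 11 of the 20.

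**Figure D4:**
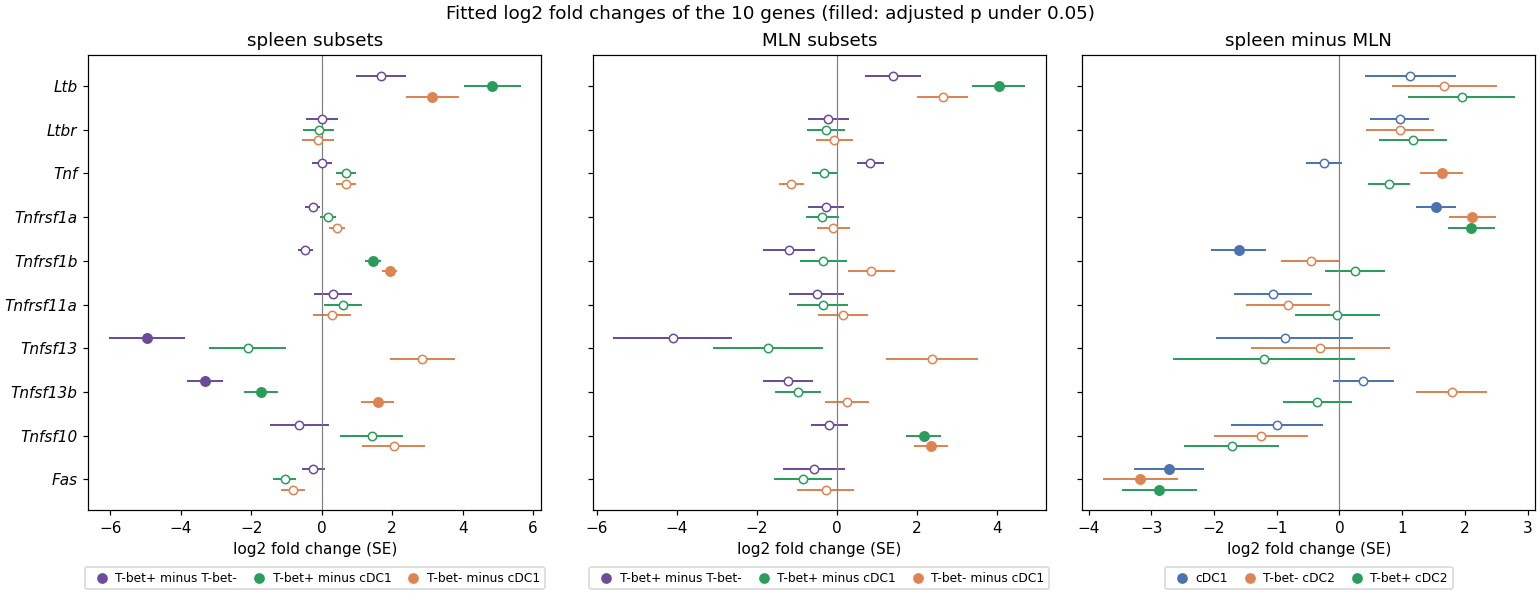
Fitted log2 fold changes (points) with SE (bars) of the 10 genes between subsets of the spleen, between subsets of the MLN and between tissues, with filled points at an adjusted p under 0.05 by edgeR's quasi-likelihood test. Ltb lies right of 0 and Tnfsf13b of T-bet+ cDC2 left of 0 in the spleen panel, and in the tissue panel all 3 subsets are called for Tnfrsf1a (1.54 to 2.11) and Fas (-3.17 to -2.72).

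Between tissues, Fas and Tnfrsf1a moved in opposite directions in all 3 subsets. Every MLN library was below 0.1 in GC dependence and the 3 spleen T-bet+ libraries were above it. In T-bet+ cDC2, tissue and GC class thus changed together. Fas was at 10.0 to 44.0 CPM in the 9 spleen libraries, while in the MLN it was at 78.3, 288 and 250 CPM in cDC1, 155 and 167 CPM in T-bet- cDC2 and 34.4 and 190 CPM in T-bet+ cDC2. MLN T-bet+ replicate 1 alone lay within the range of the spleen libraries. The fitted difference of spleen from MLN was -2.72 ± 0.56 in cDC1 (adjusted p = 0.0093), -3.17 ± 0.60 in T-bet- cDC2 (adjusted p = 0.0091) and -2.87 ± 0.60 in T-bet+ cDC2 (adjusted p = 0.017). With the GC class as a term the T-bet+ call was lost (-2.53, adjusted p = 0.21). A replicate block ended the calls of cDC1 (-1.69, adjusted p = 0.3) and T-bet+ cDC2 (-1.90, adjusted p = 0.24). For cDC1 the call was lost without spleen cDC1 replicate 1 (-2.63, adjusted p = 0.052) or replicate 2 (-2.47, adjusted p = 0.057). For T-bet+ cDC2 the value was -1.20 without MLN replicate 2 (adjusted p = 0.51) and -3.67 without MLN replicate 1 (adjusted p = 0.0011), and spleen replicates 1 and 2 also ended the call (adjusted p = 0.081 and 0.065). Tnfrsf1a was higher in spleen than in MLN by 1.54 ± 0.32 in cDC1 (adjusted p = 0.0091), 2.11 ± 0.37 in T-bet- cDC2 (adjusted p = 0.0066) and 2.1 ± 0.37 in T-bet+ cDC2 (adjusted p = 0.0087). Its T-bet+ call was lost with the GC class as a term (2.07, adjusted p = 0.098). The cDC1 and T-bet- calls were kept with that term (adjusted p = 0.04 and 0.0088). A replicate block ended all 3 calls of Tnfrsf1a (adjusted p = 0.29 in cDC1, 0.12 in T-bet- and 0.12 in T-bet+ cDC2). These 3 calls were lost without MLN cDC1 replicate 2 (1.39, adjusted p = 0.052), MLN T-bet- replicate 1 (1.81, adjusted p = 0.099) or MLN T-bet+ replicate 2 (1.62, adjusted p = 0.16), respectively, and for T-bet+ cDC2 the value was 2.80 without MLN replicate 1.

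For Tnfrsf1b the difference of spleen from MLN cDC1 was -1.61 ± 0.43 (adjusted p = 0.030), with 309, 1251 and 1238 CPM in the MLN, so that MLN cDC1 replicate 1 lay within the range of the spleen cDC1 libraries. The call was lost without spleen cDC1 replicate 1 or 2 or MLN cDC1 replicate 2 or 3 (adjusted p = 0.11 to 0.13). It was also lost with the GC class as a term (-1.43, adjusted p = 0.12) and with a replicate block (-0.47, adjusted p = 0.73). In all, 3 members were called between tissues in cDC1 beside 11.7% of 16795 genes, 2 in T-bet+ cDC2 beside 5.09% and 3 in T-bet- cDC2 beside 5.95%. No member was called for a tissue difference of the contrasts between subsets, where 0.00595% (T-bet+ against T-bet-), 0.0893% (T-bet+ against cDC1) and 0.0357% (T-bet- against cDC1) of genes were. Tnfrsf1b passed for T-bet+ against cDC1 when MLN cDC1 replicate 1 was left out (2.25, adjusted p = 0.041), compared with 1.85 ± 0.65 (adjusted p = 0.40). For these 3 contrasts 1, 2 and 1 members had an unadjusted p under 0.05, and DESeq2 called 0, 0 and 1.

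Markers of mature migratory DCs, cells that enter lymph nodes from tissue, moved in the MLN with Fas, Tnfrsf1b and Tnfrsf11a but not with Tnfrsf1a. Ccr7, Fscn1, Ccl22 and Socs2 summed to 1422 to 4894 CPM in the spleen libraries and to 10013 to 12587 CPM in 5 of the 7 MLN libraries. MLN cDC1 replicate 1 (3642 CPM) and MLN T-bet+ replicate 1 (2698 CPM) stood apart, and the same 2 libraries had the lowest Fas, Tnfrsf1b and Tnfrsf11a of the MLN. Tnfrsf1a was instead at 150 CPM in MLN cDC1 replicate 1, against 91.1 and 106 CPM in replicates 2 and 3. In MLN T-bet+ cDC2 it was at 123 CPM in replicate 1 and 54.6 CPM in replicate 2. Leaving out MLN cDC1 replicate 1 and MLN T-bet+ replicate 1 removes the lowest MLN levels of Fas and Tnfrsf1b. Larger differences of these 2 genes from the spleen thus followed from the choice of libraries. It also leaves 1 MLN T-bet+ library, so no spread between MLN T-bet+ libraries enters those values. Without both, the difference of spleen from MLN for Fas was -3.06 ± 0.33 in cDC1 (adjusted p = 8.7e-05) and -3.70 in T-bet+ cDC2, and for Tnfrsf1b in cDC1 -1.98 ± 0.24 (adjusted p = 0.00018). Tnfrsf1a was then higher in spleen by 1.80 ± 0.27 in cDC1 and 2.77 in T-bet+ cDC2. For this gene the libraries left out held the highest MLN levels of their subsets. Without both, Ltb and Tnfsf10 were no longer called in MLN T-bet+ cDC2 against cDC1 (2.94 and 2.42). The part of the migratory markers in these differences was not tested. In such sorted bulk samples, fewer cells of a kind and less RNA per cell cannot be told apart.

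**Figure D5:**
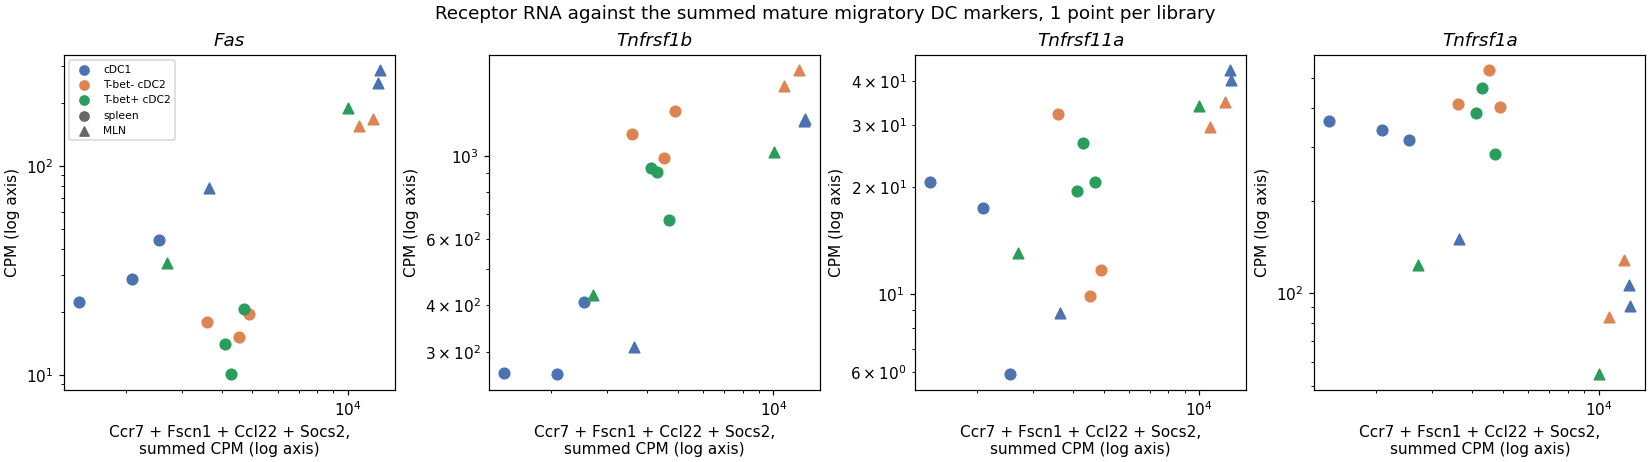
CPM of Fas, Tnfrsf1b, Tnfrsf11a and Tnfrsf1a against the summed CPM of 4 mature migratory DC markers (both axes log), 1 point per library (circles spleen, triangles MLN). The 5 MLN libraries at 10013 CPM or more hold the highest Fas levels (155 to 288 CPM). The other 2 MLN libraries lie near the spleen libraries on the horizontal axis, where Ccr7 makes up most of the sum.

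Other genes of the family were described from fixed lists. Of 11 tested TNF superfamily ligands, 3 were called between spleen T-bet+ and T-bet- cDC2, beside 5.38% of all genes. Fasl, the ligand of Fas, rose (4.77 ± 1.01, adjusted p = 0.026; means 4.39 and 0.15 CPM). It reached the count filter only in the T-bet+ libraries, so a difference was a condition of its being tested. The summed T-cell markers were also higher there (28.4 to 35.1 against 9.04 to 15.5 CPM in T-bet- cDC2), although Cd3g and Thy1 were at 0 and Cd3e at 0 to 0.454 CPM. The part of these markers was not tested. Tnfsf12 (TWEAK) fell (-4.22 ± 0.74, adjusted p = 0.012; means 0.0936 and 1.80 CPM), as did Tnfsf9, the ligand of 4-1BB (-1.27 ± 0.26, adjusted p = 0.024; means 48.6 and 116 CPM). No T-bet+ library reached the count filter for Tnfsf12. Against cDC1, 7 ligands were called in T-bet+ cDC2 (6 higher, 1 lower, beside 18.2% of all genes) and 4 in T-bet- cDC2 (3 higher, 1 lower, beside 15.9%). The largest in T-bet+ cDC2 were Tnfsf14 (LIGHT, a further ligand of Ltbr; 4.99 ± 0.43, adjusted p = 5.1e-05), Fasl (4.88 ± 1.02, adjusted p = 0.0089) and Tnfsf8 (CD30 ligand; 4.88 ± 0.86, adjusted p = 0.0036). In T-bet- cDC2 they were Eda (-7.66 ± 1.63, adjusted p = 0.011; mean 0.0158 against 4.15 CPM), Tnfsf14 (4.49 ± 0.42, adjusted p = 8.9e-05) and Tnfsf9 (2.56 ± 0.28, adjusted p = 0.00022). Eda reached the count filter in all cDC1 libraries and in no T-bet- library, so this difference was a condition of its being tested. Lta, which encodes the partner of lymphotoxin beta, was at a mean of 16.4 CPM in spleen T-bet+ cDC2, 8.88 CPM in T-bet- cDC2 and 3.54 CPM in cDC1. Like Ltb, it rose over cDC1 in T-bet+ (2.26 ± 0.36, adjusted p = 0.0022) and T-bet- cDC2 (1.37 ± 0.36, adjusted p = 0.028), and did not pass between the cDC2 subsets (0.88 ± 0.35, adjusted p = 0.21). The median over the tested ligands was 0.84 between the cDC2 subsets, beside -0.01 over all genes.

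Of 15 other TNF receptors tested in the spleen, 1 was called between the cDC2 subsets, a share near the 5.38% of all genes. Tnfrsf12a, the receptor of TWEAK, fell in T-bet+ cDC2 (-1.54 ± 0.30, adjusted p = 0.019; means 7.84 and 22.7 CPM). Against cDC1, 6 were called in T-bet+ cDC2 (5 higher, 1 lower, beside 18.2%) and 5 in T-bet- cDC2 (4 higher, 1 lower, beside 15.9%). Tnfrsf13b (TACI), a receptor of BAFF and APRIL, rose in both, by 4.02 ± 0.43 (adjusted p = 0.00020) and 3.22 ± 0.41 (adjusted p = 0.00067). Its means were 100 CPM in T-bet+ cDC2, 57.4 CPM in T-bet- cDC2 and 6.30 CPM in cDC1. Relt (2.23 ± 0.42) and Tnfrsf12a (1.9 ± 0.31) also rose in T-bet+ cDC2. In T-bet- cDC2 the changes of Tnfrsf8 (4.52 ± 1.34, adjusted p = 0.049; mean 2.01 against 0.08 CPM) and Tnfrsf12a (3.44 ± 0.33) were larger than that of Tnfrsf13b. No cDC1 library reached the count filter for Tnfrsf8.

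Among 30 adaptors and signal transducers, 3 were called between the spleen cDC2 subsets (beside 5.38% of all genes). Traf4 rose in T-bet+ over T-bet- cDC2 (3.67 ± 0.84, adjusted p = 0.035; means 103 and 7.99 CPM). The necroptosis mediators Mlkl (-2.32 ± 0.43, adjusted p = 0.014) and Ripk3 (-1.31 ± 0.22, adjusted p = 0.0098) fell. Against cDC1, 5 were called in T-bet+ cDC2 (4 higher, 1 lower, near the 18.2% of all genes), led by Tnfaip3 (means 545 and 228 CPM), Traf1 (1.23 ± 0.22) and Traf2 (1.17 ± 0.28). In T-bet- cDC2, 4 were called, all higher and near the 15.9% of all genes, led by Mlkl (1.42 ± 0.41), Traf2 (means 146 and 61.8 CPM) and Traf1 (1.23 ± 0.22). Of 11 NF-kB subunits and inhibitors, none was called between the cDC2 subsets and 3 rose over cDC1 in each, beside 18.2% and 15.9% of all genes. Nfkb1, which encodes p105 and p50, rose by 2.52 ± 0.18 in T-bet+ (adjusted p = 1.7e-05) and 2.16 ± 0.18 in T-bet- cDC2 (adjusted p = 4.7e-05), and Nfkbie by 1.36 ± 0.20 and 1.87 ± 0.21. The third was Nfkbid in T-bet+ (1.98 ± 0.36) and Nfkbiz in T-bet- cDC2 (2.35 ± 0.57). The medians of this list against cDC1 were 1.36 and 1.15, beside 0.03 and -0.01 over all genes. Of 5 sheddases and processing enzymes 1 was called between the cDC2 subsets, 0 in T-bet+ and 1 in T-bet- cDC2 against cDC1. Rhbdf2, a partner of the TNF-releasing protease ADAM17, fell in T-bet+ cDC2 relative to T-bet- cDC2 (-1.07 ± 0.25, adjusted p = 0.041) and rose in T-bet- cDC2 over cDC1 (0.91 ± 0.25, adjusted p = 0.038).

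For the members whose 6 group means spanned more than 2 on the log2 CPM scale, the genes of the most similar pattern over the 6 groups were found by the root mean square difference of centred means. For Ltb they were Ccl3 (0.38), Ube2e2 (0.41) and Arhgap6 (0.42). Tnfsf13b came closest to Arhgap23 (0.23), Cldn7 (0.35) and Pon3 (0.44), and Tnfsf13 to Pyroxd2 (0.31), Il1r1 (0.32) and Timp2 (0.43). Tnfrsf1a came closest to Lrfn1 (0.14), Ppbp (0.18) and Lats2 (0.21), and Tnfrsf1b to Pdlim3 (0.13), RP23-27B23.7 (0.18) and Peg13 (0.20). Fas was closest to RP24-94F12.3 (0.17), Hsd3b7 (0.18) and RP23-406J21.4 (0.20), and Tnfsf10 to 3 unnamed transcripts (0.17 to 0.23).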

How the data were processed

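The authors aligned RNA reads to mm10 with HISAT2 2.1.0, counted unique reads on GENCODE genes with Rsubread and deposited counts that are not normalized. For ATAC-seq they aligned with Bowtie2 2.2.5, called peaks with MACS2 2.1.1.20160309 on all replicates together and deposited counts per window of 150 bases around summits and per peak. Only positions were taken from the deposited lists of peaks and summits. The labels name RFP+ cells T-bet+ and were followed, although the methods have it reversed in 1 place.

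Genes or windows kept by filterByExpr were normalized by TMM and tested with the quasi-likelihood test of edgeR 4.0.16 in R 4.3.3, with Benjamini-Hochberg adjustment over all features. Spleen (9 libraries, 14377 genes), MLN (7, 15298), both tissues jointly (16, 16795) and ATAC-seq (6, 166547 windows) were fitted separately, with 6, 4 and 10 residual degrees of freedom for RNA. CPM are TMM-normalized over all 16 RNA or 6 ATAC-seq libraries. GENCODE M21 gave positions, and sequences are from GRCm38.p6. The tests were checked on simulated data with known changes. P-values measure the spread between these pools of mice. No 2 libraries held identical counts. Between spleen T-bet+ cDC2 and cDC1, libraries with the same replicate number in their titles deviated together from their group means (r = 0.40, 0.21 and 0.18 over genes). Their pairs of unlike number were at -0.38 to 0.15, and such pairs of other spleen subsets reached 0.81. The sources used here do not state whether libraries of the same number share mice. With the number as a block no member's call there changed.

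The 10 genes, the lists and the rule for named genes (per list, up to 4 called genes of largest fold between spleen cDC2 subsets and up to 3 for each comparison with cDC1) were chosen with earlier results of these data known.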

Additional observations from a re-analysis of the deposited data

How the results depend on the processing

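The counts of members called, of 10, kept within 1.5 times of the reported counts under DESeq2, DESeq2 size factors in edgeR, no filter on low counts, fits of the compared subsets alone, GC class as a term and edgeR's newer dispersion estimate, with these exceptions. In MLN T-bet- cDC2 against cDC1 (reported 1) there were 3 under DESeq2 and without a filter and 2 in the fit of the compared subsets and with the newer estimate, and in MLN T-bet+ cDC2 against cDC1 (reported 2) there was 1 in the fit of the compared subsets and 0 without the MLN libraries low in migratory markers. Between tissues there were 5 in cDC1 without a filter (reported 3) and 0 in T-bet+ cDC2 with the class term (reported 2). For the tissue difference (reported 0) there was 1 without a filter for T-bet+ against cDC1 and 1 under DESeq2 for T-bet- against cDC1. In the MLN every library is of the lower class, so the class term could not be fitted there. Of windows, 2 were called between T-bet+ and T-bet- cDC2 under DESeq2 and 8 at an adjusted p under 0.05 with no fold limit (reported 4), and 16 whole peaks in T-bet+ cDC2 against cDC1 (reported 30 windows). The causes were not tested. Over all genes, spleen T-bet+ against T-bet- cDC2 gave 1413 calls under DESeq2 and 1521 without a filter (reported 774), and 307 (without T-bet+ replicate 2) to 1257 (without T-bet- replicate 3) with 1 library left out. MLN T-bet+ against T-bet- cDC2 gave 328, 554, 14 in the fit of the compared subsets and 28 with the newer estimate (reported 0). Against MLN cDC1 there were 2019 and 2257 for T-bet+ (reported 952) and 1730 and 2012 for T-bet- cDC2 (reported 885) under DESeq2 and without a filter. Between tissues the same alternatives gave 3513 and 3397 in cDC1 (reported 1961), 2704 and 2875 in T-bet+ (reported 855) and 2243 and 2435 in T-bet- cDC2 (reported 1000), and the class term 774 in cDC1 and 63 in T-bet+ cDC2. Under DESeq2 4844, 23964 and 17142 windows were called (reported 10460, 38316 and 29773).

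With 1 library left out, 1 to 3 members were called in spleen T-bet+ against T-bet- cDC2, 2 to 3 in T-bet+ against cDC1 and 1 to 3 in T-bet- against cDC1. In the MLN the ranges were 0, 0 to 2 and 0 to 1. Between tissues they were 1 to 3 in cDC1, 0 to 2 in T-bet+ and 1 to 3 in T-bet- cDC2, and 0 to 1 for the tissue differences. For windows they were 1 to 7, 18 to 25 and 15 to 17. No called value changed sign in any alternative.

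Apart from spleen T-bet+ cDC2 and cDC1, same-numbered libraries deviated together in MLN T-bet+ cDC2 and cDC1 (r = 0.64 and 0.60, with 2 pairs too few to pair the samples). They did not in both pairs, or all 3, of any other RNA comparison within a tissue (r from -0.72 to 0.21). The 6 ATAC-seq pairs did not either (r from -0.12 to 0.06). With the replicate number as a block, the calls of Ltb (4.68, adjusted p = 0.012), Tnfrsf1b (1.47, adjusted p = 0.011) and Tnfsf13b (-1.83, adjusted p = 0.049) in spleen T-bet+ cDC2 against cDC1 were kept, with 1920 genes called (reported 2613). Elsewhere, 1 member was called in spleen T-bet+ against T-bet- cDC2, 1 in T-bet- against cDC1, 0 in either MLN cDC2 subset against cDC1, and 0, 0 and 1 between tissues in cDC1, T-bet+ and T-bet- cDC2. With the numbers of the MLN library names as the block there were 3 in T-bet- cDC2 against cDC1. With the numbers of T-bet- libraries crossed, 0 members (MLN) and 4 windows were called between the cDC2 subsets. The alternatives on migratory markers, the newer estimate, library names and crossed numbers were chosen after seeing the data.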

Other observations

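Between tissues, the other genes of the family moved in both directions. Of 20 tested receptors, 1 was higher and 4 were lower in spleen than in MLN cDC1, 3 were lower in T-bet+ and 4 in T-bet- cDC2. Of 11 ligands, 2 were higher and 2 lower in cDC1, 0 were called in T-bet+ cDC2, and 1 was higher and 1 lower in T-bet- cDC2. Of 30 adaptors, 1 was higher and 9 lower in cDC1, 1 higher and 2 lower in T-bet+ cDC2 and 3 lower in T-bet- cDC2. Over all genes 11.7%, 5.09% and 5.95% were called in cDC1, T-bet+ and T-bet- cDC2. Higher in spleen were Tnfrsf21 (3.40 ± 0.80 in cDC1), Tnfsf18 (4.80 ± 1.45 in cDC1), Traf4 (3.43 ± 0.75 in cDC1 and 4.55 ± 0.93 in T-bet+ cDC2) and Tnfsf14 (2.53 ± 0.66 in cDC1 and 2.39 ± 0.62 in T-bet- cDC2), with adjusted p = 0.012 to 0.049 by edgeR. In MLN cDC1 the means of Tnfsf18 (0.153 against 4.33 CPM in spleen) and Tnfsf14 (0.168 against 1.04 CPM) were below the filter cutoff of 0.41 CPM. The sizes of these changes in cDC1 thus depend on a group near the floor. Receptors lower in spleen in all 3 subsets, named after their values were seen, were Tnfrsf9 (4-1BB; -5.04 ± 0.69, -3.66 ± 0.67 and -4.80 ± 0.70 in cDC1, T-bet+ and T-bet- cDC2), Tnfrsf4 (OX40; -2.91 ± 0.62, -2.77 ± 0.65 and -4.23 ± 0.68) and Cd40 (-1.90 ± 0.32, -1.38 ± 0.34 and -1.51 ± 0.34), with adjusted p = 0.0012 to 0.034 by edgeR. The inhibitors of apoptosis Birc2 (-2.27 ± 0.49, -2.13 ± 0.52 and -2.75 ± 0.52) and Cflar (-2.55 ± 0.44, -2.09 ± 0.46 and -1.94 ± 0.46) were also lower in spleen in the 3 subsets, with adjusted p = 0.004 to 0.033. In the MLN, Tnfrsf13b rose over cDC1 in T-bet+ (4.33 ± 0.50, adjusted p = 0.0037) and T-bet- cDC2 (2.79 ± 0.48, adjusted p = 0.016), and Tnfsf14 in T-bet+ (6.14 ± 0.85, adjusted p = 0.0070) and T-bet- cDC2 (4.68 ± 0.83, adjusted p = 0.018). The means of Tnfsf14 were 12.2 CPM in T-bet+ cDC2, 4.38 CPM in T-bet- cDC2 and 0.168 CPM in cDC1, the last below the MLN filter cutoff of 0.42 CPM. The sizes of its 2 rises thus depend on a group near the floor.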
